A study of Mus musculus with 2 samples.

Results

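In the poly(A)+ RNA of mouse fetal liver, 314 stretches of stranded read coverage (contigs) lay over annotated exons on the strand opposite to the gene and inside no annotated gene on their own strand. They were chosen by measured values and position, from 677743 contigs, on 3 conditions: a length of at least 200 nt, a signal of at least 0.5, and overlap with an exon of the ENSEMBL 65 annotation on the opposite strand only, with no gene span on the contig's own strand. Both thresholds were passed by 53184 contigs, of which the antisense contigs were 0.590%. Of the others, 50948 overlapped an exon of their own strand, 397 an intron of their own strand, 201 lay opposite an intron and 1324 lay over no gene on either strand. Members of 1 strand within 500 nt of each other were joined, which left 301 loci. The gene on the opposite strand is called the host here, and 295 host genes were counted.

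The libraries came from liver of C57BL/6J embryos at day 18, and there were 2 of them, labelled as biological replicates of 1 group, with male and female tissue pooled. Per the labels, RNA above 200 nt was selected for poly(A) and depleted of ribosomal RNA, and stranded libraries were read as pairs of 101 nt. No treatment, genotype or age was compared, so no test was possible and every comparison below is a description. The contig list gives 1 signal over both libraries, so replicate values exist only for junction reads, for the RPKM of the opposite gene and for the newer gene tables. Depth was 159127988 and 136904873 expected counts on mouse genes in replicates 1 and 2 of those tables. All 7 fetal hepatocyte markers and all 7 erythroid markers reached 1 TPM in each library, and summed to 140777 and 142938 TPM and to 224528 and 218393 TPM. The 6 pancreas acinar markers summed to 65.3 and 18.8 TPM and the 5 striated muscle markers to 18.6 and 21 TPM. Their part in the contigs was not tested. Although both libraries are labelled as pooled sexes, Xist had 157187 counts in replicate 1 and 41 in replicate 2, and the Y-linked Ddx3y had 1 and 6544. Junction reads within Xist numbered 9814 in field R1 and 1 in field R2, while its RPKM was 0.0362 in field RPKM1 and 27.0 in field RPKM2. The 2 mm9 tables therefore number the libraries in opposite orders by these genes, and the fields are named below as each file numbers them.

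Natural antisense transcripts are RNAs made from the strand opposite to a gene. Many start at a bidirectional promoter and run away from the host gene, some run into the host gene's end from a neighbouring gene, and some are long non-coding RNAs with splicing and polyadenylation of their own. A few, such as Airn and Tsix, are known to repress the gene they face.

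Sequences of 2 kinds are shown as examples chosen after their values were seen, and they do not sort the members into classes. The first are spliced RNAs that a later annotation (GENCODE M21) places opposite the host gene. Each line gives 30 bases on either side of an exon joint, on the strand of the antisense RNA, 5′ to 3′, from the GENCODE M21 transcripts, and the capitals mark the 10 bases before and the 10 bases after the joint. The intron at each joint has exactly the length of a splice junction of the contig on mm9. No coordinate was converted between builds.

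Ndufb1-ps opposite Cpsf2, intron of 6022 nt, chr12:103207848-103213869, minus strand: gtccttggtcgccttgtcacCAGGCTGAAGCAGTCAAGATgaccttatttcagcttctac
Tmem147os opposite Gapdhs, intron of 2559 nt, chr7:31514874-31517432, plus strand: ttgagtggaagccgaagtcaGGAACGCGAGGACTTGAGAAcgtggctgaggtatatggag
Tmem147os opposite Gapdhs, intron of 1942 nt, chr7:31517781-31519722, plus strand: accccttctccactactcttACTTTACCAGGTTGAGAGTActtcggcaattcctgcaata
2310009A05Rik opposite Pigb, intron of 2566 nt, chr9:72887673-72890238, plus strand: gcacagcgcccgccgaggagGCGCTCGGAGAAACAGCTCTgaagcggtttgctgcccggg
Gm42067 opposite Dpf2, intron of 1464 nt, chr19:5913073-5914536, plus strand: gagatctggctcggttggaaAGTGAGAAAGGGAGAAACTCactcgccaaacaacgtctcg

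The second kind is coding sequence of host exons that a short contig covers. Each line is read on the host's own strand, 5′ to 3′, from the GENCODE M21 transcript whose exon lengths equal those of the ENSEMBL 65 transcript. It shows the coding stretch of at most 120 nt with the most purines under the contig, and the capitals mark runs of at least 10 purines (A or G). The contig itself is on the other strand and so holds the pyrimidine complement. The first 4 contigs lie over purine-rich exons. The last, over the first coding exon of Mat1a, is shown for comparison, since its host sequence is 53.0% purine. Its printed coding part has runs of at most 10 purines, but the whole overlap, 30.9% coding, holds a run of 23.

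Zc3h13, contig chr14:75727349-75727983: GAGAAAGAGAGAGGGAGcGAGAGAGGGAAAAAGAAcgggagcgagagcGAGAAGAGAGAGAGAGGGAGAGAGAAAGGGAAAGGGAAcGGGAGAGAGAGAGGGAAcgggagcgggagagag
Luc7l3, contig chr11:94158185-94158481: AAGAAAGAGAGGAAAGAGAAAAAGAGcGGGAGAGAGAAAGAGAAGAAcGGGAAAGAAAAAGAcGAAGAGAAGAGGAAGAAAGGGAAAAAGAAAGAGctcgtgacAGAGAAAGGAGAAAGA
Hsp90aa1, contig chr12:111932184-111932561: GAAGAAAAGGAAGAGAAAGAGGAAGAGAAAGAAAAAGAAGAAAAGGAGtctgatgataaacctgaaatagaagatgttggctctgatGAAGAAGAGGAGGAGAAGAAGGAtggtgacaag
Ythdc1, contig chr5:87245932-87246358: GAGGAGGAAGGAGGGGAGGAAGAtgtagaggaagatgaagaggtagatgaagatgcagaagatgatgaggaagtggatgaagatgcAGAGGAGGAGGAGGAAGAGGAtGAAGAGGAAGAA
Mat1a, contig chr14:41918594-41919018: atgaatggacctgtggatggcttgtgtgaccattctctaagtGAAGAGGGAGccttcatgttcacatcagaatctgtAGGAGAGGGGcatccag

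The members were long, weakly covered stretches with a few strong exceptions. Their length ran from 200 to 29249 nt with a median of 2294.5 nt, against 584 nt for contigs opposite introns, 831 nt for contigs outside genes and 1130 nt for contigs over exons of their own strand. The median signal was 0.871, and 80% of members lay between 0.553 and 3.15. Since signal and length chose the members, these values are a description. A longer contig is also likelier to touch an exon, so the rule itself favours longer contigs here than among those opposite introns. In the file, a signal of 1 went with 65.4 ± 0.108 (SD over contigs) of summed coverage per base, so the threshold of 0.5 equals 32.7 per base if that column is read depth. Of the members, 188 were under a signal of 1, 14 reached 5 and 8 reached 10. The plus strand held 154 and the minus strand 160, over 20 chromosomes. The authors' score was 0 for 312 of them.

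Members just inside the signal threshold were those opposite Spata9, Eef2k and Dhps, all at 0.501, and just outside were contigs opposite Setd1a (0.499), Tmem248 (0.498) and C1rl (0.494). At the length threshold, the members opposite Smarcc2 (200 nt), Chaf1a (205 nt) and Sec62 (208 nt) were inside, and contigs opposite Atf6b and Rad51ap1 (198 nt each) and Gigyf2 (190 nt) were outside.

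A single member held most of the signal. It lay over an unnamed gene (ENSMUSG00000045999) at chr17:39979936-39985821, a place known as the mouse 45S pre-ribosomal RNA locus, with a signal of 1260 over 5886 nt. That is 82.9% of the members' signal multiplied by length, although the labels state depletion of ribosomal RNA. The opposite gene was at 0.0102 and 0.00217 RPKM. This contig had 118 same-strand junctions, of which 6 carried the mark C=1 (a mark in the junction names whose meaning the sources used here do not state), so the junction results below are given with and without it.

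The next members by signal fell into 2 groups by the strand opposite. Cep85, which codes for a centrosomal protein, faced a contig of signal 46.1 (chr4:133717569-133720504), with no contig on the gene's own strand over these bases. The Cep85 exon it overlaps was nevertheless listed at 2.10 and 1.28 RPKM in fields RPKM1 and RPKM2, so the 2 measures of this host differ. The contig inside Camk2b, a calmodulin-dependent kinase subunit, had a signal of 21.3 (chr11:5905656-5912613) against 0.00597 on the gene's strand. Members within Sfi1, a gene for a centriole-associated protein, and within an unnamed gene on chromosome 17 reached 6.70 and 7.01, against 0.627 and 0.121 opposite. Averaged over the bases of each of these 4 members, the antisense strand was the stronger one.

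In the other group the host mRNA was abundant. The HSP90 chaperone gene Hsp90ab1 carried an antisense contig of signal 14 (chr17:45707188-45707872) under an mRNA contig of signal 87.2, and its exon stood at 111 and 46.5 RPKM in fields RPKM1 and RPKM2. Its paralogue Hsp90aa1 had 7.82 against 13.4, with exon levels of 13.2 and 7.30 RPKM. Cyb5r3, a cytochrome b5 reductase, had 13.9 against 44.1. Mat1a, the liver enzyme that makes S-adenosylmethionine, had 9.56 against 31.3, with exon levels of 38.2 and 45.0 RPKM. The processed pseudogene Gm9800 had 29.8 against 158. The acidic nuclear phosphoprotein genes Anp32a and Anp32b, whose products bind histones, had 11.2 against 13.9 and 13.3 against 3.32. Only the Anp32b contig exceeded its host among these 7.

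**Figure D1:**
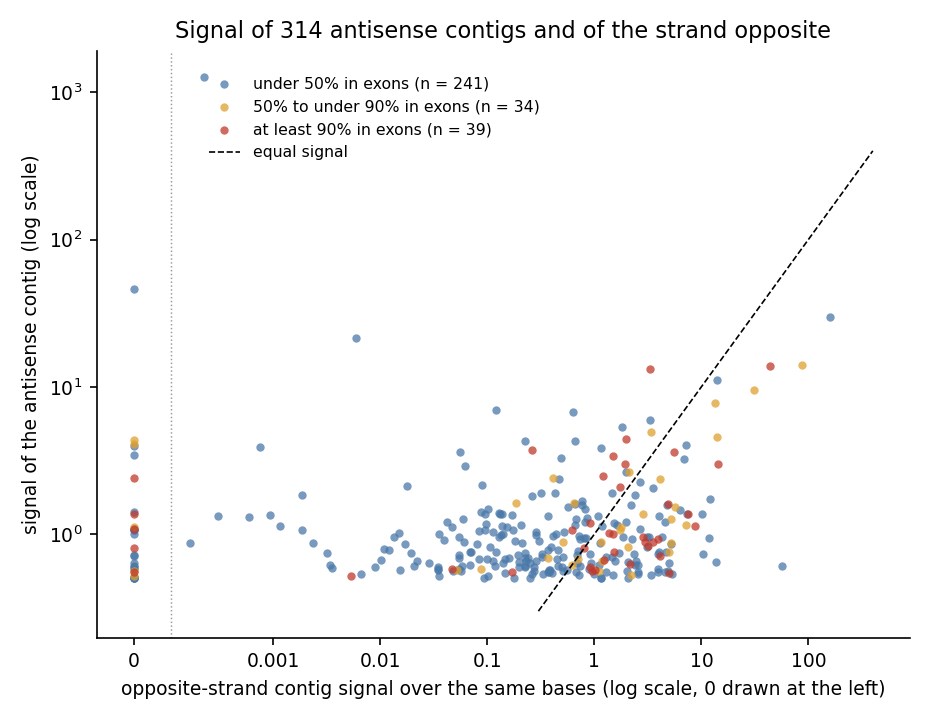
Signal of each of the 314 members (vertical, log scale) against the signal of contigs on the opposite strand over the same bases (horizontal, log scale, with 0 drawn at the left). Points are coloured by the share of the contig in exons. In 206 members the antisense signal is above the dashed line of equal signal, in 108 below, and 29 have no contig opposite.

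Over all members, the median ratio of antisense signal to opposite-strand contig signal was 2.21. The opposite signal is a mean over all bases of the member, with bases without a contig counted as 0. Host introns under a member therefore lower it and raise the ratio. The ratio was above 1 in 206 members and below 1 in 108, and 29 of the 206 had no contig on the opposite strand. Against the highest opposite exon, the median ratio of signal to RPKM was 0.745. Those scales differ: in 58 contigs that filled a single exon, 1 RPKM went with a signal of 3.08 (quartiles 2.16 and 4.50). In 67 members the host exon was under 0.1 RPKM.

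The ratio was lowest in P4hb, which codes for protein disulfide isomerase, where the antisense signal was 0.608 against 56.6, or 1.07%, with exon levels of 164 and 77.5 RPKM. Tspan31 (0.646 against 13.6) and Dad1 (0.73 against 10.3), a subunit of the oligosaccharyl transferase, came next, and 5 members in all were under 0.1. The pseudogene Gm10222 had a low ratio to its exon level (4.31 against 103 and 136 RPKM) but faced a contig of only 0.659, so its 2 measures of the host disagree. To show how much signal stood opposite strong exons, 101 contigs of signal 100 or more over exons of their own strand were taken, with no gene on the other strand within 5 kb. The other strand held no contig in 85 of them, and their pooled opposite signal was 0.0101%. A single one exceeded 0.1%, at 16.9%, and it is the contig opposite the Gm9800 member. Since members were chosen for their signal, their ratios cannot be read against this share, and the part of reads assigned to the wrong strand was not tested.

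By position on the host, 134 members (42.7%) covered its start, 127 (40.4%) lay in its interior, 41 (13.1%) covered its end and 12 (3.82%) spanned the whole gene. Those over the start reached a median of 1674.5 nt beyond it, and those over the end began a median of 2337 nt past it. Members over the end were longer (median 5206 nt) than those over the start (2397.5 nt) or in the interior (896 nt). The next gene upstream on the members' own strand was at a median distance of 39647 nt, and 38 members had one within 5 kb, 13 of them among the 41 over a host end.

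By the share of the contig inside exons, 241 members were under 50%, 34 were from 50% to under 90%, and 39 were at 90% or more. The last group was short, with a median of 309 nt against 2773 nt for the first. All but 1 of the 39 lay in the interior of the host. A contig at least 90% in exons is bounded by exon length and can hardly pass the gene's ends. The grouping rule thus largely fixes both traits. The median ratio to the opposite contig was 0.674 in the 39, against 3.0 in the first group. Averaged over each member, the antisense strand was the stronger one in 173 of the 241 that extended into introns or past the gene. It was so in 18 of the 39 within-exon members. The grouping bears on these values too, since bases outside host exons lower the opposite signal and raise the ratio. The median opposite signal was 0.275 in the 241 and 1.5 in the 39. How much of the difference comes from this was not tested.

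**Figure D2:**
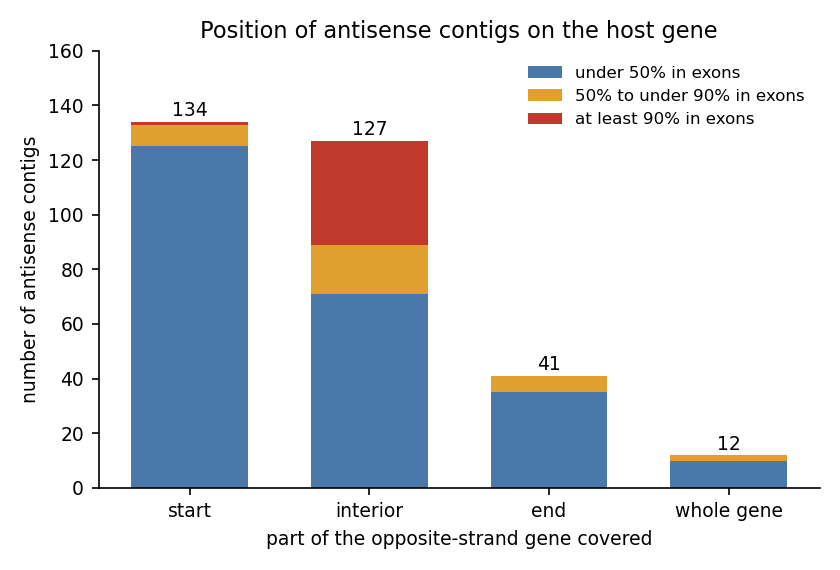
Number of members by the part of the host gene they cover (horizontal), with colours for the share of the contig in exons. Of the 127 interior members, 38 are at least 90% in exons, against 1 of the 134 over the start. The grouping by exon share largely fixes this difference.

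Counted by member, the host was protein coding in 276. It was annotated as an antisense gene for 8 members, as lincRNA for 6 and in other classes for 9, and for 15 it was not matched to the newer annotation. Of all 37310 genes in the ENSEMBL 65 table, 0.791% were hosts. The share was 0.222% among genes under 0.1 RPKM, 1.05% from 0.1 to 1, 1.96% from 1 to 10, 2.14% from 10 to 100 and 1.27% (2 of 158) at 100 and over.

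None of the 32 plasma protein genes was a host, although all were at 1 RPKM or more, and neither was any of the 11 globin and red cell genes, 97 ribosomal protein genes, 71 histone genes or 30 imprinted and known antisense loci found in the table. Of these, 11, 88, 46 and 23 were at 1 RPKM or more. Hosts were 1.98% of genes at 1 RPKM or more and 0.791% of all genes, so counts of 0 or 1 in lists of this size are near the background and are no result about the lists. Hhex, a homeobox factor of liver and blood vessel development, was the 1 host of 25 hepatocyte factors. Its member (chr19:37503998-37509257, minus strand, 5260 nt) had a signal of 0.965 against 0.724 opposite, and the Hhex exon stood at 3.45 and 2.001 RPKM. Tal1, a master factor of blood formation, was the 1 host of 15 erythroid and blood factors. Its member (chr4:114730201-114730889, minus strand, 689 nt) had 0.951 against 3.10, and the exon opposite read 0.153 and 5.29 RPKM. The 2 fields disagree on that exon, so its level is not settled.

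Several hosts faced more than 1 member, which then may come from 1 RNA. Anp32a and Gapdhs faced 4 each, and 11 other genes faced 2. The members of Gapdhs, the sperm form of glyceraldehyde-3-phosphate dehydrogenase, had signals of 3.98, 1.35, 1.32 and 0.922, with Gapdhs exons at 0.00250 RPKM in RPKM1 and 0 in RPKM2 for the first 3. The fourth also faced Tmem147, whose exon stood at 8.96 and 9.62 RPKM. At Anp32a, the members at 11.2 and 4.60 lay over the interior exons and had no junction, and those at 0.756 and 0.696 lay at and near the start and shared a junction with 152 reads in R1 and 154 in R2. The longest loci faced Dock10 (29249 nt), Nrp1 (23951 nt), Gm9946 (17162 nt), BC021767 and Cgn (16947 nt) and Fbxw2 (15966 nt). The Nrp1 member, inside the gene of the semaphorin and VEGF co-receptor neuropilin, had a signal of 0.951 against 0.0549 on the gene's strand. Only 1.26% of this member lay in Nrp1 exons, so the value of 0.0549 is mostly that of introns. The Nrp1 exon level was 1.44 and 0.740 RPKM, on a scale where 1 RPKM went with a signal of 3.08.

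Splice junctions, which did not choose the members, were found on the same strand with at least 2 reads in each library in 147 of 314 members (46.8%). The share was 39.3% for contigs opposite introns, 45.0% for contigs outside genes, 46.3% for contigs in introns of their own strand and 97.7% for contigs over exons of their own strand. With the mark C=1 required it was 43.3% of members, against 32.8% opposite introns, 39.0% outside genes and 35.5% in introns of the own strand. With 10 reads in each library it was 32.8%, against 25.9%, 30.7% and 32.7%. None of the 544 junctions carried the authors' mark for annotated junctions. The rule largely fixes this, since annotated junctions end at annotated exons and members overlap none on their own strand. Without the rRNA contig, the C=1 junctions of at least 20 reads, 198 in number, had a median intron of 1846 nt. Members over the host end had a junction in 29 of 41 cases, those over the start in 59 of 134, and members at least 90% in exons in 8 of 39. A longer contig has more bases in which a junction end can fall. The median lengths of these groups were 5206, 2397.5 and 309 nt, and the contig classes compared above also differ in length. The part of length in these shares was not tested.

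The strongest antisense splicing outside the rRNA contig lay over the start of Cpsf2, which codes for a cleavage and polyadenylation factor. That contig (chr12:103206300-103214786) had a signal of 2.90, and its leading junctions had 2317 and 2165 reads, and 2123 and 1785 reads, in R1 and R2. The joint printed for Ndufb1-ps has the intron of the first of these. The antisense contig over the start of Cyp17a1, the 17-hydroxylase of steroid synthesis, had 883 and 618 reads over its leading junction, with a signal of 1.15 and a host exon of 1.70 and 1.92 RPKM. The member over Arg1, the arginase of the urea cycle, had 476 and 315 reads at a signal of 1.45, against 51.3 and 50.7 RPKM for the exon it faces. These hosts thus ranged from weakly to strongly expressed.

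At Cep85, the leading antisense junction had 719 and 670 reads, and at Camk2b 365 and 268. Lnx1, a ubiquitin ligase gene listed at 0 RPKM in both fields over the exons faced, had an antisense contig of 14395 nt with 312 and 281 reads. B3gat3, a glucuronyltransferase gene of proteoglycan synthesis, had 363 and 158. The leading junction of the Gapdhs group, printed above for Tmem147os, had 343 and 274. The rRNA contig had 6438 and 5194 reads over its leading junction, without the mark C=1.

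**Figure D3:**
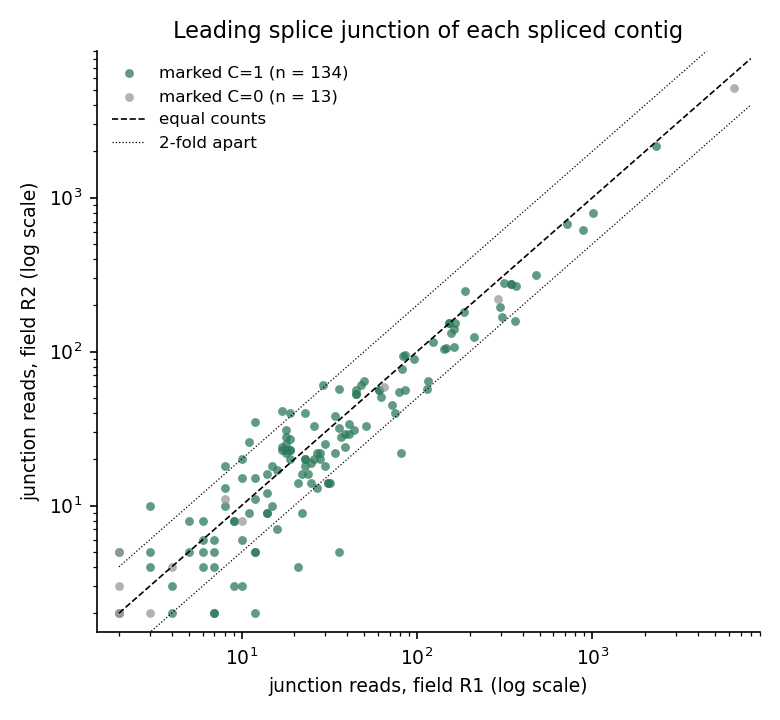
Reads across the leading junction of each of the 147 spliced members in field R1 (horizontal) and field R2 (vertical), both on log scales, with dotted lines 2-fold apart. The Cpsf2 junction (2317 and 2165) and the rRNA contig's (6438 and 5194) are the highest pairs.

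Between the libraries, junction reads of members differed more often than those of all junctions. Scaled to the total junction reads, 45 of 255 member junctions with at least 20 reads were past 2-fold, or 35 of 205 without the rRNA contig, while 5.95% of all 153124 such junctions were. The member junctions had a median of 51 reads (49 without the rRNA contig) against 176 for all, and the part of read count in the difference was not tested. Several junctions of 1 contig share its RNA: at Lmln, a metallopeptidase gene, R1 and R2 gave 111 and 209, 27 and 46, and 7 and 27 reads. At B3gat3 the order was the reverse, with 267 and 98, 42 and 15, and 16 and 5. The Cyp2c23 member had 36 and 5. Since each side is 1 library, these are differences between libraries only.

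In 26 members a junction joined the contig to an annotated gene on its own strand, in 20 of them with at least 10 reads. Joined here means that the far junction end lay within the gene's span, and an annotated exon there was not required. Not all these junctions carried the mark C=1: that from the Fbxw2 member to Hspa5, with 18 reads, did not. The contig over 2610206C17Rik was joined to Zfand6 by 1800 reads (1008 in R1 and 792 in R2) across 55336 nt. The one over 4930442H23Rik was joined to the death-associated kinase gene Dapk3 by 436 reads, the one over 1700084C06Rik to the JAK family kinase gene Tyk2 by 365, and the one in Sfi1 to Pisd-ps1 by 318. The members over Zfp740, Hdc and Fbxl21 were joined to Csad, to the fatty acid transporter gene Slc27a2 and to Lect2, with 160 and 70 reads for the first 2. In 18 members, contigs of the same strand covered at least 90% of the gap to the next gene upstream, 11 of them over host ends. Examples are the members over Hdc, 2659 nt past Slc27a2, which was at 64.2 RPKM, over Fads3, 3500 nt past Fads2 (22 RPKM), and over Swsap1, 2096 nt past the erythropoietin receptor gene Epor (8.96 RPKM). For these members the contig and the neighbouring gene cannot be told apart as separate RNAs.

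The assembled models deposited for the same libraries covered 122 members on their own strand, 108 of them with a model of more than 1 exon, and left 192 without. A model covered 10 of the 39 members at least 90% in exons and 112 of the other 275. The model over the Cep85 contig stood at 63.6 and 36.1 RPKM in RPKM1 and RPKM2, and that over the Camk2b contig at 21.3 and 16.3. The model within Lmln had 3.60 and 2.64. Of 28 models with a mean of at least 0.5 RPKM, 1 was past 2-fold on log2(RPKM + 0.1), against 2.27% of all such models. It faced Bag6, a chaperone gene, at 0.922 and 0.166 RPKM. The median log2 of RPKM2 over RPKM1 was −0.20 over the 28, and −0.06 over all 5513.

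The newer annotation places 64 genes absent from ENSEMBL 65 opposite the exons of 59 hosts, which face 64 of the members. Of these genes, 35 are classed as antisense, 11 as unconfirmed (TEC) and 5 as lincRNA. A junction length equal to an intron of such a gene was found in 17 members, out of 36 of the 64 that had any junction. Of the 64 genes, 30 were in the mm10 gene tables and 14 reached 1 TPM in each library. 2310009A05Rik, opposite the GPI anchor gene Pigb, was highest at 18.7 ± 0.75 TPM (SD, n = 2), with 998 and 753 counts in replicates 1 and 2. Its intron of 2566 nt matched a junction of 211 and 124 reads. Tmem147os had 983 and 947 counts, or 6.80 ± 1.02 TPM, with introns matching junctions of 3 of the 4 Gapdhs members. Gm10603, opposite the ciliary gene C2cd3, had 823 and 787 counts, or 1.53 ± 0.0566 TPM, and matched junctions of 60 and 39 and of 12 and 5 reads. The first of these junctions did not carry the mark C=1.

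Zbtb11os1, opposite the transcription factor gene Zbtb11, had 426 and 409 counts and no annotated intron to match. Gm27003, opposite Gabpb1, had 92 and 115. Genes opposite the same host need not be the RNA of the contig. Of 24 genes whose mean count reached 10, 1 was past 2-fold between replicates, against 4.34% of all 17608 such genes. That gene was Gm29361, opposite Rbm25, with 15 and 6 counts. 1700018L02Rik, opposite the mitochondrial adenylate kinase gene Ak3, was just short of it, with 284 and 505 counts.

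**Figure D4:**
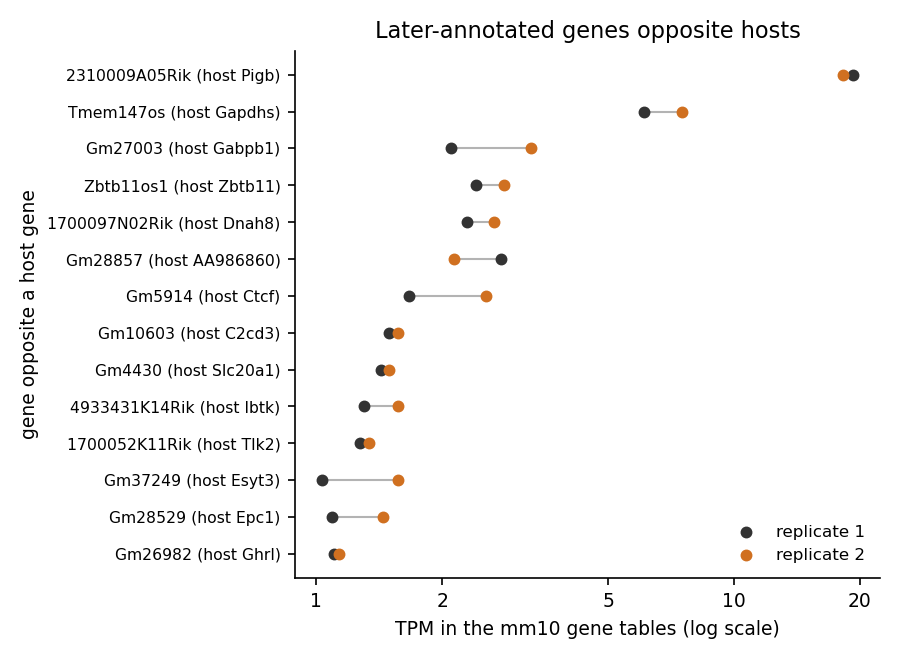
TPM of the 14 later-annotated genes opposite hosts that reach 1 TPM in both libraries (horizontal, log scale), with a point for each replicate. 2310009A05Rik and Tmem147os stand above the others, which are all under 4 TPM.

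Host exon sequence could be read for 217 members. Its median purine share on the host strand was 51.3% over all of them, 51.1% under members below 50% in exons and 54.7% in the 29 with sequence among those at least 90% in exons. In the latter, 8 of 29 were at 70% purine or more, against 0.292% of 109208 windows of 300 nt in the coding sequences of all genes and 0.211% of 203844 such windows in whole transcripts. The windows have a fixed length while the overlaps vary, with a median of 309 nt in the 29. The 8 were Zc3h13 (82.0%), Luc7l3 (78.9%), R3hcc1 (75.8%), Trim44 (71.7%), Arid4b (71.6%), Slc15a3 (71.1%), Ythdc1 (71.0%) and Ctnnd1 (70.2%). Of the 29, 11 were mostly coding, and of the 8, the sequence was 37.0% coding at Slc15a3 and not coding at Ctnnd1. In each the share was above that of the whole host transcript, which was 60.2% for Zc3h13 and 55.3% for Luc7l3. A further 3 of 28 members from 50% to under 90% in exons passed 70%, among them Hsp90aa1 (75.1%) and Nrd1 (71.3%). Of the 160 members with sequence under 50% in exons, 5 were at 70% or more, with overlaps as short as 2 and 5 nt among them. At Anp32a and Anp32b, members under 50% in exons faced short exon pieces at 83.7% (98 nt) and 80.0% (70 nt). Of the other members over these hosts, the within-exon member of Anp32b was at 54.7% and the Anp32a members were at 48.1%, 56.6% and 56%.

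Among these purine-rich hosts, the level of the opposite strand varied. Zc3h13, a subunit of the RNA methylation complex, had an antisense signal of 0.80 against 0.798. Luc7l3, a splicing factor gene, had 3.63 at a ratio of 0.648, and Ythdc1, a nuclear reader of methylated RNA, 2.10 at a ratio of 1.21. Of the 11 members at 70% or more in these 2 groups, Luc7l3 alone had a junction. Runs of at least 20 purines lay under 13 of the 29 within-exon members, and in 1.55% of the 300-nt coding windows, while the overlaps differ in length. The longest, of 106 purines, lay under Cyb5r3, where the whole overlap of 1188 nt was 52.9% purine. Other within-exon members had neither a high share nor a long run: the sequence under Ctcf, the insulator protein gene, was 53.8% purine and that under the mitochondrial factor gene Tfam 54.5%, with longest runs of 15 and 8.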

How the data were processed

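Members were chosen from the deposited contig list, whose columns hold, judged from the values, a signal over both libraries, a score from the authors and a summed coverage, on mm9. The deposited junction list gives read counts per library in fields R1 and R2. The deposited exon, gene and assembled-model tables give RPKM in fields RPKM1 and RPKM2. The deposited mm10 tables give expected counts and TPM per gene and library, made by the authors. Which aligner, assembler and quantifier were used is not given in the sources used here.

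Contigs were classed by overlap of at least 1 base with ENSEMBL 65 exons and gene spans. A junction belonged to a contig when an exon-side end lay inside it. Expected counts were rounded, scaled with the TMM method (edgeR 4.0.16, R 4.3.3), and given 0.5 before log2; DESeq2 1.42.0 size factors were an alternative. The RPKM pseudocount was 0.1. Host sequence came from 568 of 829 transcripts with equal exon lengths in ENSEMBL 65 and GENCODE M21, by offset. Hosts, biotypes and symbols were matched to GENCODE M21 by identifier for 282 of 295 genes. Overlap and ratio steps were tested on simulated data. Precision of contig values is limited by 1 signal over both libraries, and that of junctions by their read counts.

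The members, host lists and settings were chosen with earlier results of these data known. Named loci are the 12 with the highest signal, the 5 longest, hosts with the most members, the 10 with the most junction reads, those nearest each threshold, those with extreme ratios and hosts in the lists; others, including the purine-rich, neighbour-joined and later-annotated examples, were chosen after their values were seen. The highest ratios to exon RPKM are a tie of 13 members whose host exon is listed at 0, so no 5 of them could be named. All coordinates are 1-based on mm9. One of the purine-rich members is not reported here by name.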

Additional observations from a re-analysis of the deposited data

How the results depend on the processing

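The number of members follows the signal threshold. It was 721 at a signal of 0.25, 126 at 1 and 47 at 2, and 73 when at least 50% of the contig had to lie in exons. Members with a junction rose from 147 to 285 at 1 read over both libraries, and were 190 and 194 with 1 library left out, numbered by field. The median ratio to host exon RPKM was 0.745, with 0.579 to 1.06 on 1 field at a time and 0.454 against host gene RPKM. It was 1.49 in the 244 members without an opposite exon at 3.57 RPKM or more, the highest 10% of exons, and 2.21 with contig signal as the host level. That last alternative, the C=1 mark, the leave-out junction counts and the purine settings were added after seeing the data. Models past 2-fold numbered 1 of 28 (2.27% of all models), 0 of 28 at a pseudocount of 1 (0.526%) and 6 of 131 with no filter (0.876%). Later-annotated genes past 2-fold numbered 1 of 24 (4.34% of all genes) and 3 of 30 with no filter (9.74%). The other counts stayed within 1.5 times their main value and the position shares within its 95% Wilson interval. Within-exon members at 70% purine or more were 8, with 10 at 65% and 11 when members from 50% in exons were added. No paired analysis was possible because there is 1 group. Contigs near the threshold are the least certain, since 188 members have a signal under 1.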
